A study of Bos taurus with 2 samples.

Results

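The factors that build skeletal muscle were examined in the longissimus thoracis (LT) muscle of bovine fetuses, for the low-nutrition (LN) against the high-nutrition (HN) group. They comprise the paired box factors *PAX7* and *PAX3*, the basic helix-loop-helix (bHLH) factors *MYF5*, *MYOD1*, *MYOG* and *MYF6*, the MEF2 factors *MEF2A*, *MEF2C* and *MEF2D*, and the fusion protein myomaker (*MYMK*). They were found on the arrays through the accession given with each probe. Of these 10 genes, 8 had a matched probe, with 21 probes in all, and 7 had a value, from 19 probes, among the 19554 genes or transcripts with a value on the arrays. *PAX7* is not in the gene table used to name the probes, so the arrays may carry it under an accession not named here, and no accession of a probe matched *MEF2D*. Neither was analysed here. The 1 probe of *PAX3* was not well above background on either array.

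The HN dams were Japanese Black cattle fed 120% of the nutritional requirement, and the LN dams were of the same breed and were fed 60%, from before pregnancy on. All dams were inseminated with semen of 1 sire sorted for males, and the fetuses were at 8.5 months of gestation. RNA of 4 fetuses was pooled for each array, those of the highest body weight (BW) for HN and those of the lowest BW for LN, so diet and selection by BW cannot be told apart. With 1 array of a pool per group, the spread between fetuses is unknown, the groups could not be tested against each other, and every difference below describes these 2 pools.

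In developing muscle, PAX3 and PAX7 mark the progenitor cells, and satellite cells, the stem cells under the basal lamina of the fibre, keep PAX7 and express MYF5. MYF5 and MYOD1 commit cells to the myoblast fate, MYOG starts their differentiation, and MYF6 (also called MRF4) is the bHLH factor most typical of maturing fibres. The MEF2 factors bind muscle gene promoters together with the bHLH factors, and myomaker is the membrane protein by which myoblasts fuse into fibres.

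Of the late genes, *MYF6* and *MYMK* were lower in LN, *MYF6* by 1.34-fold and *MYMK* by 1.41-fold. The early gene *MYF5* was 1.15-fold higher in LN. *MYOD1*, *MEF2A* and *MEF2C* differed by at most 1.07-fold, and the probes of *MYOG* differed in opposite directions. A threshold of 0.32 was set on the size of log2 LN/HN, at which the signal of the higher pool is 25% above that of the lower pool, as in the threshold the study used. Past it, 2 of the 7 genes with a value were lower in LN, against 9.11% of all genes (1781 of 19554), and 0 were higher, against 8.85% of all genes (1731). The median log2 LN/HN was -0.10 over the 7 genes and -0.0033 over all genes, with 6 of the 7 below 0. The count of 2 is a description of a small set, and it became 1 under 2 of the 13 other settings of the processing. Under both looser filters on dim probes it stayed at 2 but held *PAX3*, not above background, in place of *MYMK*, as given in the closing section.

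In the values below, a signal is the background-corrected intensity of a spot, given ± the error that the scanner software estimated for it, and it ranks no probe or gene against another, because each probe binds with its own strength. Log2 LN/HN is the difference between the arrays after quantile normalization, and a gene was given the average of its probes. The software's error of a signal was close to a fixed share of that signal at nearly all of the members' probes above background. Overlap of the ranges and multiples of the error therefore mostly restate the size of the fold and add no separate evidence. The software's error of a log2 ratio was 0.20 to 0.22 for these probes. Repeated spots of the same probe gave a smaller spread, an SD of 0.0854 (42 probes), and the median SD between different probes of a gene was 0.0995 (7139 genes). None of these covers the spread between animals.

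The 3 probes of *MYF5*, the first bHLH factor of the lineage to be expressed in the embryo, were all dim to moderate. The brightest gave a signal of 143 ± 14.4 in HN and 168 ± 16.8 in LN. The next gave 62.9 ± 6.41 in HN and 63.2 ± 6.49 in LN, and the dimmest gave 49.3 ± 5.06 in HN and 62.5 ± 6.40 in LN. The brightest and the dimmest were thus higher in LN, with ranges of signal ± error that overlapped for the brightest and not for the dimmest, and the middle probe was level. On the log2 LN/HN scale they stood at 0.22, 0.01 and 0.36, which were 1.05, 0.0705 and 1.71 times the software's error of each. The mean was 0.20 (SD over probes 0.17, n = 3 probes), which placed *MYF5* at percentile 82.4 of all genes. Every probe of a gene was higher in LN in 24.0% of the genes with at least 3 probes above background on both arrays (718 of 2987), but the middle *MYF5* probe was at -0.03 with subtraction of the 75th percentile and at -0.01 with normexp, a background correction that models the signal and the background of each spot together.

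*PAX3*, the paired box factor of the embryonic progenitors that migrate into the limbs, gave a signal of 2.35 ± 1.27 in HN and 1.57 ± 1.57 in LN. The median negative control read 1.24 in HN and 1.51 in LN. The probe was therefore not detectable above background in this tissue, no fold was given, and the values do not show that the transcript was absent. Because the gene table used did not hold *PAX7*, whether or not the arrays do, the satellite cell side of the comparison rested on *MYF5* alone.

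*MYOD1*, which with *MYF5* sets the myoblast fate, differed little at any of its 3 probes. Its brightest probe read 1645 ± 165 in HN and 1609 ± 161 in LN, its middle probe 312 ± 31.2 and 313 ± 31.4, and its dimmest 74.9 ± 7.57 and 77.7 ± 7.88. The log2 LN/HN values were -0.08, -0.01 and 0.06, each less than 0.4 times its software error. The gene value of -0.01 (SD 0.068, n = 3 probes) lay at percentile 48.6 of all genes.

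**Figure D1:**
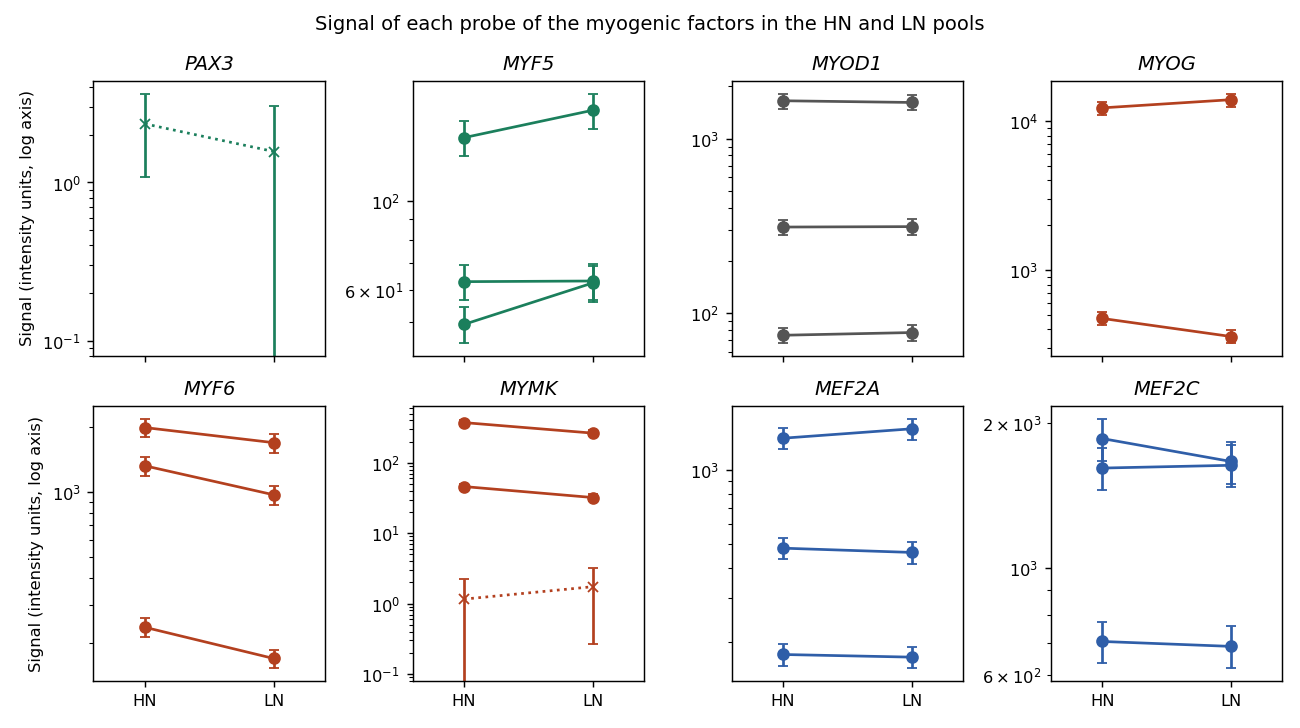
Signal of every matched probe of the myogenic factors in the HN and LN pools, in intensity units on log axes that differ between panels. Each line joins the same probe on both arrays, bars are the scanner software's error, bars that run off the bottom reach 0, and dotted lines with crosses are probes not well above background on either array. The lines of *MYF6* and of the 2 measured *MYMK* probes slope down from HN to LN, and those of *MYOG* diverge.

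*MYOG*, myogenin, the bHLH factor that starts terminal differentiation, had 2 probes that differed in opposite directions. The bright probe read 12263 ± 1226 in HN and 13913 ± 1391 in LN, and the dim one 475 ± 47.5 in HN and 359 ± 35.9 in LN. The bright probe was thus 1.12-fold higher in LN and the dim probe 1.36-fold lower, with log2 LN/HN of 0.17 and -0.44, and the ranges of signal ± error overlapped for the bright probe and not for the dim one. Their differences were 0.821 and 2.15 times the software's error. The gene value was -0.14 with an SD of 0.43 between the 2 probes, so the probes gave no common direction. A spread between probes at least as wide was found in 277 of the 7139 genes with at least 2 probes above background on both arrays (3.88%). The reason for the difference was not tested.

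*MYF6*, the bHLH factor most abundant in mature fibres, was lower in LN at each of its 3 probes. The signals were 1987 ± 199 in HN and 1691 ± 169 in LN for the brightest probe, 1321 ± 132 and 970.3 ± 97.0 for the next, and 236 ± 23.7 and 170 ± 17.0 for the dimmest. For the middle and dimmest probes the ranges of signal ± error did not overlap between HN and LN, and for the brightest they did. The log2 LN/HN values were -0.28, -0.50 and -0.50, which were 1.36, 2.44 and 2.46 times the software's error in size. The mean was -0.43 (SD 0.13, n = 3 probes), which ranked the gene 1012 from the lowest of 19554. Every probe was lower in LN in 21.0% of the genes with at least 3 probes above background on both arrays (627 of 2987), and *MYF6* was among them, as was *MEF2C* with the reported processing. *MYF6* was past the threshold under 12 of the 13 alternatives, and not with its brightest probe alone (-0.28).

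*MYMK*, whose product sits in the myoblast membrane and is needed for fusion, was lower in LN at both probes above background. The brighter read 372 ± 37.2 in HN and 264 ± 26.4 in LN, and the next 46.0 ± 4.78 in HN and 32.1 ± 3.57 in LN. Its dimmest probe read 1.16 ± 1.16 in HN and 1.74 ± 1.47 in LN, near the median of the negative controls, and gave no fold. At neither of the measured probes did the ranges of signal ± error overlap. The log2 LN/HN values were -0.52 and -0.47, or 2.53 and 2.16 times the software's error in size, and the mean was -0.50 (SD 0.0308, n = 2 probes). The gene thus ranked 720 from the lowest of 19554. Both probes were past the threshold, as was every probe in 2.41% of the genes with at least 2 probes on both arrays (172 of 7139). The gene was not past the threshold under 3 of the 13 alternatives, at -0.30 with normexp and at -0.15 under both filters that counted its dimmest probe.

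Of the MEF2 factors, *MEF2A*, the form widely expressed in muscle, had its brightest probe at 1345 ± 134 in HN and 1469 ± 147 in LN. Its other probes read 480.0 ± 48.0 and 461 ± 46.2, and 177 ± 17.8 and 173 ± 17.4. The log2 LN/HN values of 0.07, -0.10 and -0.05 lay on both sides of 0, with a mean of -0.02 (SD 0.0883, n = 3 probes). *MEF2C*, which rises as myoblasts differentiate, read 1857 ± 186 in HN and 1664 ± 166 in LN at its brightest probe, 1613 ± 161 and 1634 ± 163 at the next, and 704 ± 70.4 and 687 ± 68.8 at the dimmest. Its log2 LN/HN values were -0.20, -0.03 and -0.07, all lower in LN by less than the software's error, with a mean of -0.10 (SD 0.0901, n = 3 probes). The middle probe was on the other side of 0 without normalization (0.02) and with normexp (0.0081). Neither MEF2 gene thus differed by more than the software's error at any probe.

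**Figure D2:**
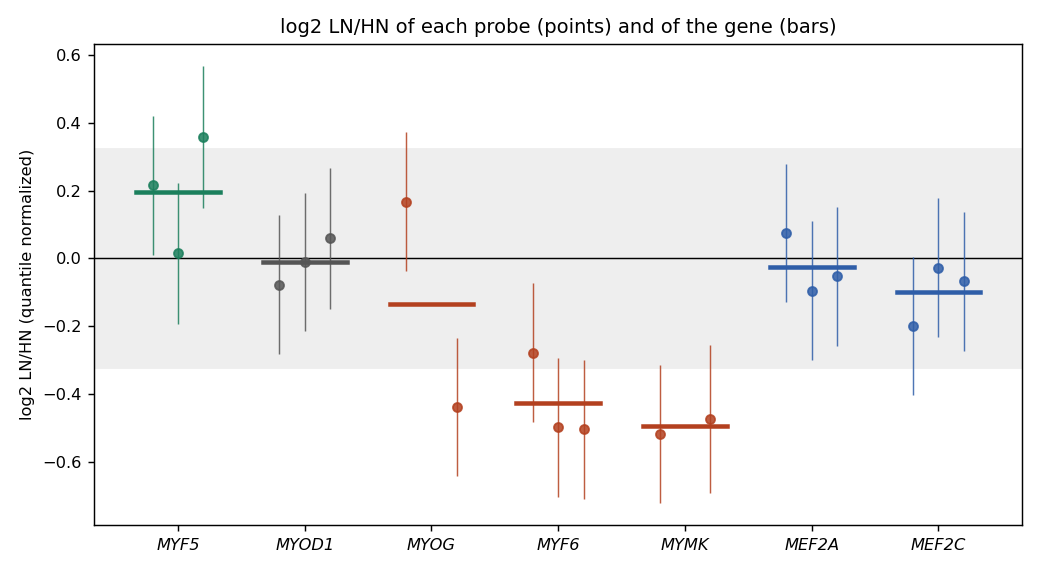
Log2 LN/HN of each probe (points, brightest first from the left, with the software's error) and of each gene (horizontal bars) for the 7 factors with a value, after quantile normalization. The gray band spans the threshold of 0.32 in either direction: the gene values of *MYF6* (-0.43) and *MYMK* (-0.50) lie below it, *MYF5* (0.20) is the 1 gene above 0, and the *MYOG* probes lie on either side of 0.

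The comparison between the early and the late genes set *MYF5* against the mean of *MYOG*, *MYF6* and *MYMK*. The mean log2 LN/HN of the late genes was -0.35 and that of *MYF5* was 0.20. The difference between them was 0.55, equal to 1.46-fold, with an SD of 0.23 propagated from the spread between probes. The difference was above 0 under each alternative that gave a value, from 0.34 with the normexp background correction to 0.84 with the probe of largest change of each gene. When *MYOG* was left out, a choice made after its probes were seen to move apart, the difference was 0.66. *MYF6* and *MYF5*, which stood on opposite sides of 0, are neighbouring genes with 0 genes between them in the annotation of the bovine assembly ARS-UCD2.0.

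**Figure D3:**
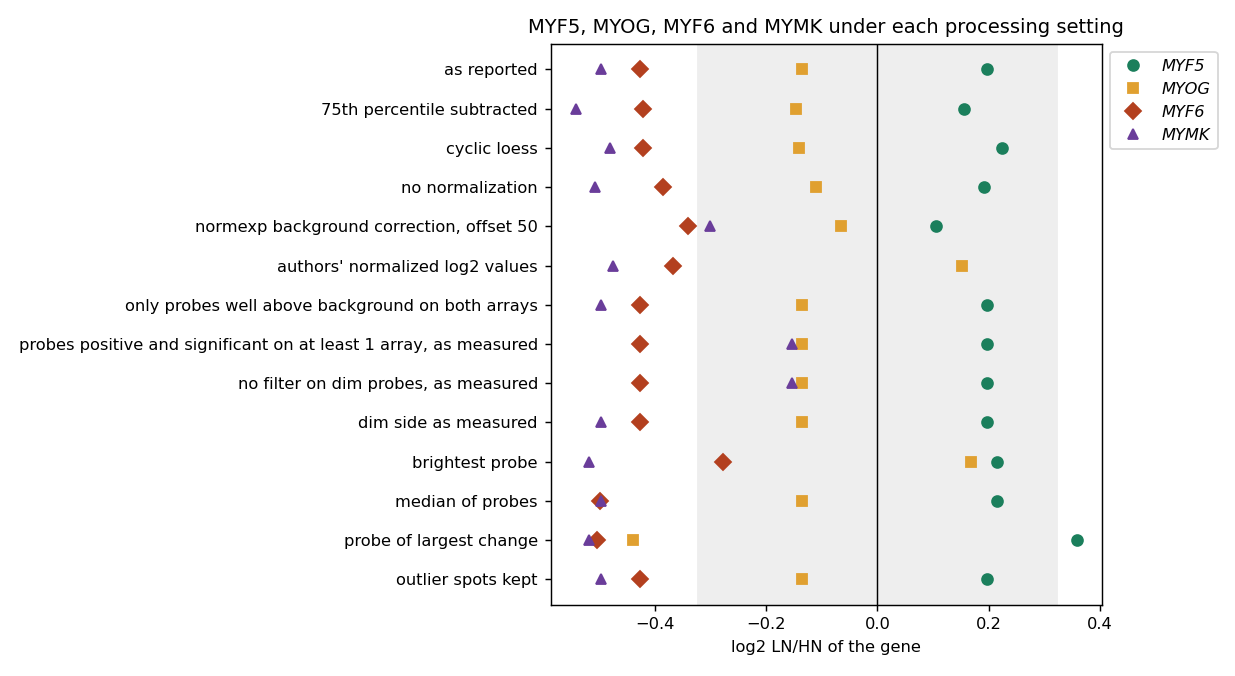
Gene values of *MYF5*, *MYOG*, *MYF6* and *MYMK* (log2 LN/HN) under the reported processing and each of 13 alternatives, with the threshold of 0.32 in either direction as the gray band. *MYF5* has no value in the authors' normalized table, *MYMK* moves into the band with normexp and where its undetected probe is counted, and *MYOG* lies above 0 with the brightest probe and with the authors' values.

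Because each pool held RNA of whole muscle tissue, fewer cells of a type and less RNA per cell cannot be told apart. The tissue label was checked against skeletal muscle markers, of which 10 of 12 had a value, and on the normalized log2 scale the sarcomeric actin gene *ACTA1* read 17.57 in HN and 17.53 in LN, the muscle creatine kinase gene *CKM* 16.68 and 16.44, and desmin (*DES*) 14.51 and 14.36. The median log2 LN/HN of these markers was -0.17. Of the 10 with a value, 2 were past the threshold lower (against 9.11% of all genes) and 1 higher (against 8.85%). Genes of fibroblasts and fibro-adipogenic progenitors were higher in LN in 8 of 8 cases, 4 of them past the threshold (*COL1A1*, *COL3A1*, *LUM* and *OSR1*, against 8.85% of all genes), a count that ranged from 2 with the authors' values to 5 with the probe of largest change. A summed signal adds the normalized intensity of each gene, after its probes were averaged on the log2 scale, so the brightest genes weigh most. For these genes it was 24150 in HN and 29045 in LN. Endothelial genes were lower in 9 of 10 cases, 2 of them past the threshold (against 9.11% of all genes). Their summed signal was 9099 in HN and 7383 in LN. Macrophage genes were lower in 7 of 8 cases, 3 of them past the threshold (37.5%, against 9.11% of all genes). Their summed signal was 6426 in HN and 5098 in LN. Mural cell genes were lower in 4 of 6 cases, with a summed signal of 903 in HN and 716 in LN. Of the mural cell genes 2 were past the threshold lower (33.3%, against 9.11% of all genes) and 1 higher (16.7%, against 8.85%). From probes well above background on both arrays, 0 were past it higher. The median log2 LN/HN of the mural cell genes was -0.30, or -0.09 with normexp. Of 7 neutrophil genes, 5 were past the threshold higher (71.4%, against 8.85% of all genes) and 1 lower (14.3%, against 9.11%). Of those past it, 1 in each direction was well above background on 1 array only. Of the 5 genes measured on both arrays 4 were past it higher and 0 lower. The summed signal of the 7 genes was 598 in HN and 1127 in LN. The summed signals of the other types were 461 in HN and 570.1 in LN for 3 adipocyte genes, 24276 and 23415 for 5 erythroid genes, and 3333 and 3417 for 6 Schwann cell genes. Of the markers with a matched probe, *LEP* among adipocyte genes and *SLC4A1* among erythroid genes were not well above background on either array, while *ADIPOQ*, *CSF3R* and *MRC1* had no matched probe. The part of these shifts in the values of the myogenic factors was not tested.

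Other genes known from satellite cells, such as surface receptors and members of the Notch pathway, had a value in 18 of 25 cases. Of these 18 genes, 6 were higher and 12 lower in LN, 0 were past the threshold higher and 2 past it lower, and the median log2 LN/HN was -0.09. *CHRDL2*, chordin-like 2, a secreted BMP antagonist, was at a normalized log2 level of 6.41 in HN and 5.19 in LN, a log2 LN/HN of -1.22, with probes at -1.43 and -1.02 and a value of -0.61 with normexp. *HES1*, the transcriptional repressor switched on by Notch, was at 9.97 in HN and 9.55 in LN, a difference of -0.42 from 1 probe. The share past the threshold lower (11.1%) was near the 9.11% of all genes.

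The homeobox and SIX-EYA factors, which act upstream of the bHLH genes in the somite and limb, had a value in 9 of 15 cases. They were higher in 6 and lower in 3, with a median of 0.17 and a range from -0.28 to 0.31, and 0 were past the threshold in either direction, a count that says little in 9 genes beside 8.85% of all genes higher and 9.11% lower. Their median stood above 0 under each alternative, although 1 of the 9 genes passed the threshold higher under 3 alternatives and 1 lower under 5.

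The bHLH partners and inhibitors decide whether the myogenic factors can bind DNA, since ID proteins and TWIST proteins compete for or block their E protein partners. Of 15 such genes with a value, 5 were higher and 10 lower, with 2 past the threshold in each direction (13.3%, against 8.85% of all genes higher and 9.11% lower) and a median of -0.07. The balance turned to 8 higher and 7 lower both with normexp (median 0.003) and when only the brightest probes counted (median 0.02). *ID1*, an inhibitor that lacks a DNA-binding region, was at log2 10.27 in HN and 9.63 in LN, a difference of -0.64 with probes at -0.71 and -0.58. *HES6*, a HES family member that promotes myogenic differentiation, differed by -0.52 from 1 probe. *TWIST1*, a mesenchymal bHLH factor that inhibits myogenesis, was at 6.03 in HN and 6.66 in LN, a difference of 0.62 from 1 probe (0.35 with normexp), and its relative *TWIST2* differed by 0.38 from 1 probe, or 0.09 with normexp. The genes named here thus stood on both sides of 0.

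The cofactors and repressors of MEF2 had a value in 9 of 19 cases, with 3 higher, 6 lower and a median of -0.10. *HDAC7*, a class II histone deacetylase that represses MEF2, was the 1 gene past the threshold (11.1% lower, near the 9.11% of all genes), at -0.39 over 2 probes and -0.19 with normexp. Fusion and adhesion genes, the group closest in function to *MYMK*, had a value in 16 of 23 cases, of which 4 were higher and 12 lower. Their range was -0.29 to 0.23 and their median -0.05, and 0 of the 16 passed the threshold in either direction, against 8.85% of all genes higher and 9.11% lower. This count was not stable, since 1 to 5 of these genes passed it lower under 8 of the 13 alternatives, among them 3 with subtraction of the 75th percentile and 2 with no normalization, while 0 passed it higher under any.

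Among 31 differentiation targets with a value, of 34, 11 were higher and 19 lower, with *TNNC2* level and a median of -0.04. Past the threshold, 3 genes were higher and 3 lower, or 9.68% in each direction, close to the 8.85% and 9.11% of all genes. Those higher were *CDKN1A*, the inhibitor by which myoblasts leave the cell cycle (log2 LN/HN 0.66, probes at 0.30 and 1.02), *MUSK*, the receptor kinase of the neuromuscular junction (0.48, but 0.23 with normexp), and *MYH8*, the perinatal myosin heavy chain (0.35, probes from 0.04 to 0.61). Myosin heavy chain genes are close in sequence, so their probes may share signal. Those lower were *MYL4*, the embryonic and atrial light chain (-0.97, probes at -0.99 and -0.95), *XIRP1*, an actin-binding protein of the attachment sites of fibres (-0.39, but -0.31 with normexp and -0.24 from the authors' values), and *MB*, myoglobin (-0.37). *MYL4* stood at log2 12.78 in HN and 11.81 in LN. Those past the threshold thus stood on both sides of 0, as in the bHLH list.

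Proliferation genes had a value in 17 of 20 cases, with 5 higher, 12 lower and a median of -0.09. The list also holds the cell cycle inhibitors *CDKN1B* (-0.03) and *CDKN2C* (-0.12), which are counted among the 12 lower. Past the threshold, 5 of the 17 were lower in LN (29.4%, against 9.11% of all genes) and 0 higher (against 8.85%). These were the mitotic cyclin gene *CCNB1* (-0.53) and its kinase *CDK1* (-0.41), and *BUB1* (-0.57), *CCNA2* (-0.42) and *CCNB2* (-0.36), named after their values were seen because each has a probe that was dim on 1 array. With normexp, 0 of these genes were past the threshold, and *CCNB1* and *CDK1* were at -0.15 each. On the normalized log2 scale *CCNB1* was at 5.17 in HN and 4.64 in LN and *CDK1* at 5.04 and 4.63. The normexp alternative adds a fixed offset to each intensity, which makes the ratios of dim genes such as these smaller by construction. The lower count with normexp is therefore no separate evidence that these differences are unstable. How much of the lower count came from the offset was not tested.

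**Figure D4:**
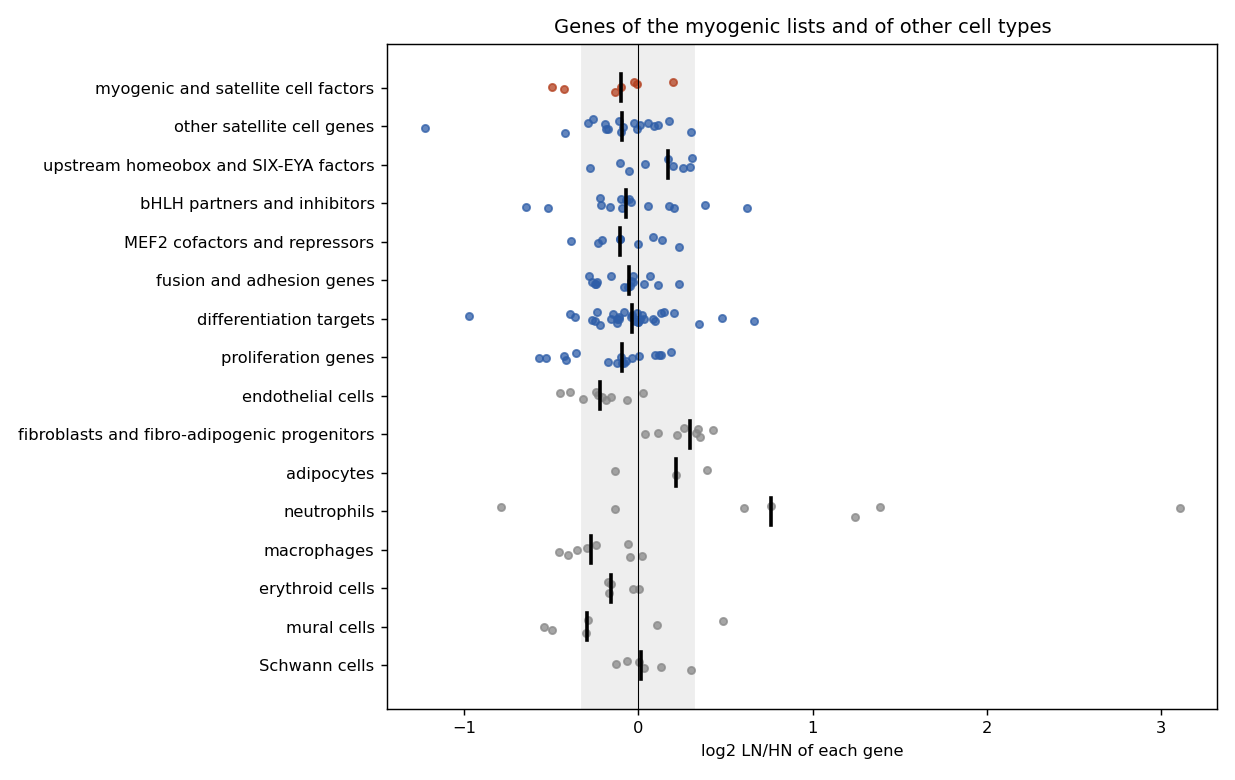
Log2 LN/HN of each gene (points) with the median (black bar) for the myogenic factors, 7 lists of related genes and 8 lists of other cell types, with the threshold of 0.32 in either direction as the gray band. The medians of the myogenic lists lie between -0.10 and 0.17, while the fibroblast genes all lie above 0 with a median of 0.30.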

How the data were processed

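Total RNA of the LT muscle was labeled with Cy3 and hybridized to 2 one-color Agilent Bovine (v2) arrays on the same slide, 1 per pool. The authors read the spots with Feature Extraction 11.0.1.1 and deposited their intensities after background correction but before any scaling between arrays, with flags and error estimates. The deposited table of normalized values (quantile method, GeneSpring GX) covers 30027 probes, appears from its range to be log2, and served as an alternative.

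Log2 intensities of the 43803 non-control spots were quantile normalized with limma 3.58.1 in R 4.3.3. After the 13 spots with an outlier flag were removed and repeated spots averaged, 43652 probes were kept. Detection required the flag for well above background on 1 array or more (32775 probes), and 30639 probes had it on both. Where 1 array lacked the flag, its value was raised to the lowest flagged normalized signal of that array (log2 2.27 for HN and 2.82 for LN). Each gene was given the average of those detected probes for which a fold existed. Of the spots, 74.5% were well above background on HN and 70.9% on LN, 0 were saturated, and the 7 spike-ins differed by -0.04 to 0.07 (log2 LN/HN). The number of arrays limits the precision.

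Symbols came from the accessions of the probes through the gene table of ARS-UCD2.0 (26742 probes matched). Coordinates are left out because the array design predates that assembly, and no probe sequences were used here. Later steps used Python 3.11.15, numpy 2.4.6, pandas 2.3.3, scipy 1.17.1 and matplotlib 3.10.9. The gene summary was tested on simulated data with changes larger than those of the members, in genes with probes above background on both arrays. That test does not cover differences of the members' size. The value of 1 marker gene is not reported here.

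The members and the gene lists were chosen with earlier results of these data known, and the lists were written from general knowledge. Besides the members, up to 3 genes per direction past the threshold were named from each of the 7 lists of related genes, provided that no detected probe was dim on either array. The normexp alternative used the median spot and background signals with offset 50, as no mean signal was used here. The other 12 alternatives cover the scaling, the filter on dim probes, the summary over probes, the outlier spots and the authors' values. No test was made.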

Additional observations from a re-analysis of the deposited data

How the results depend on the processing

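The count of 2 factors past the threshold lower in LN became 1 with normexp (*MYF6* at -0.34, with *MYMK* at -0.30) and 1 with the brightest probe (*MYMK* at -0.52, with *MYF6* at -0.28). With the probe of largest change it was 3, since *MYOG* reached -0.44, the count of factors higher in LN became 1 (*MYF5* at 0.36), the median of the factors became -0.20 and the difference between *MYF5* and the late genes 0.84. Taking the largest change makes each gene larger by construction. The offset added with normexp likewise makes the ratios of dim probes smaller by construction. With normexp the brighter measured *MYMK* probe was at -0.45 and the dimmer one at -0.15. How much of the changes with normexp came from the offset was not tested. With the filter on positive and significant spots or with no filter, the count stayed at 2 but held *PAX3*, not above background, in place of *MYMK*, which was at -0.15 once its undetected probe was counted. *MYF6* (-0.50 to -0.28), *MYMK* (-0.54 to -0.15) and *MEF2C* were lower in 13 of 13 alternatives and *MYF5* higher in 12 of 12 (0.10 to 0.36). *MYOG* was lower in 11 of 13, with 0.17 from the brightest probe and 0.15 from the authors' values. The difference between *MYF5* and the late genes could not be computed from the authors' values, which do not list the *MYF5* probes. Signal over background limits *PAX3* and the dimmest *MYMK* probe, which read no more than 2.35 beside negative controls at 1.24 and 1.51. No replicate could be left out and no paired analysis was possible because each group has 1 array.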
